A study of Mus musculus with 10 samples.

Results

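Solute carrier (SLC) genes were followed in the mouse embryonic stem cell line J1 after knockdown of 4 subunits of the INO80 chromatin remodelling complex. A probe was taken as a member if the array design named it Slc, a family number, a and a member number, and if it was well above background on both arrays of cells given a non-targeting small interfering RNA (siRNA). This gave 319 of the 41143 probes used, for 226 genes out of the 20663 genes tested. Of 452 probes with such a name, 34 were above background on 1 of these arrays and 99 on neither, and they were left out. The dimmest members lay close to the limit. Probes of Slc36a1, Slc17a6 and Slc12a1 were just inside it, at mean log2 levels of -6.19, -6.09 and -6.04. Probes of Slc16a10 and Slc30a3 were just outside it, at -5.59 and -5.65, because 1 of their arrays was not above background. Members were thus chosen by detection on the 2 control arrays, and counts and levels of members in these arrays are given as description.

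The groups were J1 cells transfected with siRNA against Ino80, Ino80b, Ino80c or Ino80e, and control cells transfected with the non-targeting siRNA (NT). Cells were harvested 96 hours later (day 4), and each group held 2 samples on 1 array each, for 10 arrays in all. All groups came from the same line, had been kept in ESGRO medium and were moved to M15 medium for transfection. No untransfected sample was analysed here, so every group shares the transfection itself. The labels do not say whether the 2 samples of a group came from separate cultures, so p-values measure only the spread between these samples, which may be technical.

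SLC proteins are a large family of membrane transporters that move amino acids, sugars, lactate, metals, ions, nucleosides and transmitters across the plasma membrane or the membranes of organelles. Some exchange one solute for another, some use a sodium or proton gradient, and some only let their substrate flow down its own gradient. Stem cells in culture depend on them for glucose, amino acids and the export of lactate. INO80 is an ATP-dependent remodeller that moves and edits nucleosomes, with Ino80 as its ATPase and Ino80b, Ino80c and Ino80e as further subunits.

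Levels are log2 processed signals minus each array's 75th percentile, so 0 is that percentile, and levels of different probes cannot be ranked against each other. The share of probes detected above background ranged over the arrays from 66.4% to 79.0%, and no spot was saturated. Replicate arrays correlated at 0.9876 to 0.9931 (Pearson's r) across the member genes, which are not independent replicates. Ino80 fell by 1.20 under its own siRNA (log2, adjusted p = 0.0041), Ino80b by 2.00 (adjusted p = 0.028) and Ino80c by 2.34 (adjusted p = 0.0107), all by limma. Ino80b was also at -2.41 and -2.37 in Ino80c and -2.44 and -2.90 in Ino80e cells, below its NT levels of -1.39 and -1.16, without passing the threshold (limma adjusted p = 0.0907 and 0.0888). Ino80e was at 3.64 and 3.41 under its own siRNA, against 5.03 and 4.43 in NT cells, and missed the threshold (log2 fold change -1.20, limma adjusted p = 0.0815). Of the embryonic stem cell markers, 11 of 12 were on the array, and these were above background on both arrays of every group. The NT arrays shared slide 1, the Ino80 and Ino80b arrays slide 2, and the Ino80c and Ino80e arrays slide 3. Slide and knockdown therefore cannot be told apart in any comparison with NT, and only Ino80 with Ino80b and Ino80c with Ino80e were compared within a slide.

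The oligonucleotides that carry the main results are shown by the first 30 of their 60 bases, 5′ to 3′, because the separate probes of a gene gave different answers in several cases below. Positions are as the files give them on the mouse build mm7, and exon or UTR annotation on that build was not used here. The Slc11a1 probe is at chr1:74625260-74625319, that of Slc4a7 at chr14:12552686-12552745 and that of Slc38a5 at chrX:6713250-6713309. The brighter Slc39a8 probe is at chr3:135682549-135682608 and the dimmer one at chr3:135681282-135681341. The probe of Slc18a2 is at chr19:59217576-59217636 and that of Slc16a3 at chr11:121067754-121067813.
Slc11a1: ccggtttccagtttggacaagtgctttacc
Slc4a7: aaaggttcacgagtcggattcccctggttc
Slc38a5: acatagttctcacttcctagatgaagctgt
Slc39a8, brighter: gtgatgagaattagtaatagaagccaagtt
Slc39a8, dimmer: acatcgaattgcagtagccggaagtggagt
Slc18a2: ggcaaatatttcttttgttttatgaagctt
Slc16a3: ctgggcagtggtctgttcaccctgagtccc

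Between 25 and 38 SLC genes were called against NT in each of Ino80, Ino80b and Ino80c cells, whose arrays lay on other slides than NT. More rose than fell, though with quantile normalization 20 rose and 19 fell in Ino80, 15 rose and 11 fell in Ino80b, and 10 rose and 9 fell in Ino80c cells. Genes were called at an adjusted p under 0.05 in limma, with Benjamini-Hochberg adjustment over all genes tested. In Ino80 cells 38 of 226 member genes were called (16.8%), 23 higher and 15 lower than in NT cells, beside 12.2% of all genes tested (7.49% higher and 4.76% lower). In Ino80b cells 25 were called (11.1%), 15 higher and 10 lower, beside 6.41% of all genes (3.74% higher and 2.67% lower). In Ino80c cells 28 were called (12.4%), 19 higher and 9 lower, beside 6.28% (4.69% higher and 1.59% lower). In Ino80e cells 0 members were called, beside 0% of all genes, although 70 members had an unadjusted p under 0.05. That count of 0 depended on the processing. In Ino80e cells 68 members were called with normexp background correction, beside 26.2% of all genes. With a trended, robust prior 20 were called (8.23% of all genes), and 14 on the authors' deposited values (5.36%). The median log2 fold change of the members was 0.149 in Ino80, 0.104 in Ino80b, 0.240 in Ino80c and 0.127 in Ino80e cells, next to 0.166, 0.126, 0.253 and 0.191 for all genes in the same order. Over genes detected on both NT arrays the medians were 0.133, 0.117, 0.219 and 0.175, so the members lay below all genes in each comparison but above the detected genes in Ino80 and Ino80c cells.

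Most members were called nowhere. There were 176 members called in no knockdown, 26 in 1, 7 in 2 and 17 in 3, and none was called in opposite directions. The 17 were called in Ino80, Ino80b and Ino80c cells, 10 of them higher and 7 lower, which is 7.52% of the members where 2.84% of all genes tested were called in these 3 with 1 direction. These comparisons share the 2 NT arrays, so a deviation of those arrays enters each of them. The calls also rest on the spread pooled over the 5 groups. With the 4 arrays of a comparison alone, 0 members were called in any of them, and 46, 59, 63 and 55 had an unadjusted p under 0.05 in Ino80, Ino80b, Ino80c and Ino80e cells. Without NT replicate 2, the counts were 15 in Ino80, 1 in Ino80b (Slc11a1) and 0 in Ino80c cells, where 58 had an unadjusted p under 0.05. On the authors' deposited log2 values, which carry no background subtraction, 54.3% of the called members were higher in Ino80, 38.9% in Ino80b and 22.2% in Ino80c cells. In the processed signals those shares were 60.5%, 60.0% and 67.9%.

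**Figure D1:**
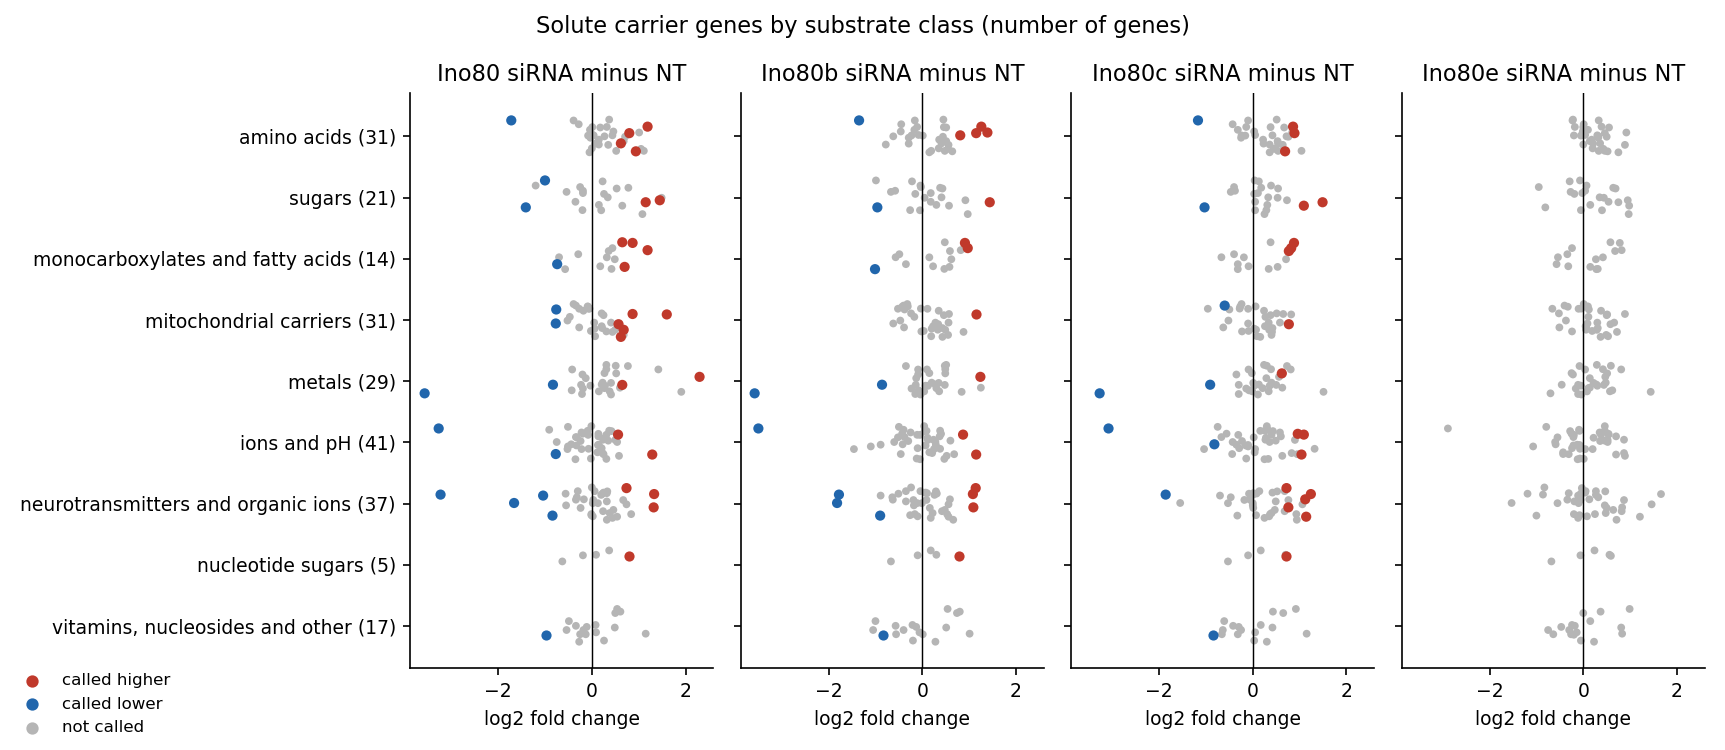
Log2 fold changes against NT of the 226 SLC genes by substrate class, with 1 panel for each knockdown and 1 point for each gene; red and blue points were called higher and lower. Called genes lie in most classes, the 2 lowest in Ino80 cells are a metal and a bicarbonate transporter at -3.57 and -3.27, and the Ino80e panel holds no called gene with this processing.

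Metal transporters held the gene with the steepest fall and the gene with the steepest rise in Ino80 cells. Of 29 genes in the class, 2 rose and 2 fell in Ino80 cells, 1 rose and 2 fell in Ino80b cells, and 1 rose and 2 fell in Ino80c cells. Of all genes tested, 12.2% were called in Ino80, 6.41% in Ino80b and 6.28% in Ino80c cells. Counts of this class and of each class below stand beside these shares, and no class was tested against them. Slc11a1 (NRAMP1) pumps iron and manganese out of the phagosome in macrophages. It stood at -4.29 and -4.07 in Ino80, -4.43 and -3.95 in Ino80b, -4.18 and -3.57 in Ino80c and -1.47 and -1.15 in Ino80e cells, against -0.87 and -0.36 in NT cells. The 6 arrays of the first 3 knockdowns lay more than 2 log2 units under all others, while both Ino80e arrays lay just under NT. The log2 fold change was -3.57 ± 0.28 (SE, n = 2 each) in Ino80, -3.58 in Ino80b and -3.27 in Ino80c cells, with limma adjusted p of 0.00215, 0.0085 and 0.0161. In Ino80e cells it was -0.70 (limma adjusted p = 0.163). In bulk RNA like this, fewer cells that express a gene and less RNA of it per cell cannot be told apart.

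Markers of other cells moved beside Slc11a1. The summed level of 13 macrophage and blood markers on the array was -0.11 and 0.05 in Ino80, 0.40 and 0.48 in Ino80b, 1.31 and 1.46 in Ino80c and 2.00 and 2.33 in Ino80e cells, against 1.76 and 1.89 in NT cells. Of 10 tested, 1 was higher and 3 were lower in Ino80, 2 were lower in Ino80b and 1 was lower in Ino80c cells. Of all genes tested, 12.2%, 6.41% and 6.28% were called in these knockdowns. Cd68 fell by 1.98 in Ino80 and 1.02 in Ino80c cells, Srgn fell by 3.06 in Ino80 cells and Cd14 rose by 1.01 in Ino80 cells. The median log2 fold change of the 10 was 0.11 in Ino80, 0.03 in Ino80b and 0.29 in Ino80c cells. The defining markers Adgre1 and Spi1 were not above background in any group, and Lyz2 was above it only in Ino80c cells. Extraembryonic endoderm markers summed to 2.64 and 2.81 in Ino80 cells and 2.76 and 3.10 in Ino80b cells, against 3.41 and 3.57 in NT cells. In Ino80c cells, where Slc11a1 fell by 3.27, they summed to 3.23 and 3.36, and in Ino80e cells to 3.52 and 3.55. Afp was not above background in any group. Of 11 tested, 9 were lower and 1 higher in Ino80, 7 were lower in Ino80b, and 2 were lower and 1 higher in Ino80c cells. The part of these cells in the fall of Slc11a1 was not tested.

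Slc39a8 (ZIP8) brings zinc, manganese and iron into the cell. Its brighter probe was at 0.89 and 1.11 in Ino80, 0.03 and -0.15 in Ino80b, -0.68 and -0.81 in Ino80c and -0.66 and -0.99 in Ino80e cells, against -1.15 and -1.46 in NT cells. All 8 knockdown arrays were above both NT arrays, with Ino80 highest, Ino80b next, and Ino80c and Ino80e overlapping each other. Slc39a8 rose by 2.30 ± 0.18 (log2, SE, n = 2 each) in Ino80 and by 1.24 in Ino80b cells, with limma adjusted p of 0.00215 and 0.0199. The values of 0.56 in Ino80c and 0.47 in Ino80e cells missed the threshold. Its dimmer probe gave 1.12 in Ino80 cells and 0.18, -0.19 and -0.43 in Ino80b, Ino80c and Ino80e cells, so the 2 probes shared the direction in Ino80 and Ino80b cells only.

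Slc41a1, a magnesium transporter, was the other metal carrier that fell, by 0.83 in Ino80, 0.86 in Ino80b and 0.91 in Ino80c cells, with limma adjusted p of 0.0188, 0.029 and 0.0275. Its levels were -1.36 and -1.56 in Ino80, -1.35 and -1.64 in Ino80b and -1.57 and -1.52 in Ino80c cells, against -0.74 and -0.53 in NT cells, and these groups did not overlap with NT. Of the other metal carriers, Slc39a6 and Slc30a4 were each called higher in 1 knockdown. Their log2 fold changes over the 4 knockdowns ran from 0.44 to 0.65 and from 0.49 to 0.62. The widely studied carriers Slc11a2, Slc40a1 and Slc30a1 were not called in any knockdown. Slc11a2 (DMT1), the paralogue of Slc11a1, was at -0.40 and 0.07 in Ino80 cells, against -0.57 and -0.77 in NT cells. Slc40a1 (ferroportin), the iron exporter, was at 0.15 and -0.24 in Ino80b cells, against -0.99 and -1.61 in NT cells (log2 fold change 1.25, limma adjusted p = 0.0577). Slc30a1 (ZnT1), the zinc exporter of the plasma membrane, had fold changes from 0.20 to 0.48. Among 20 tested genes of metal handling outside the family, none was called in Ino80 cells and 1 rose in each of Ino80b and Ino80c cells (in Ino80c cells Heph, by 2.02, on a probe above background on 1 NT array). The shares of all genes called were 12.2%, 6.41% and 6.28% in Ino80, Ino80b and Ino80c cells.

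**Figure D2:**
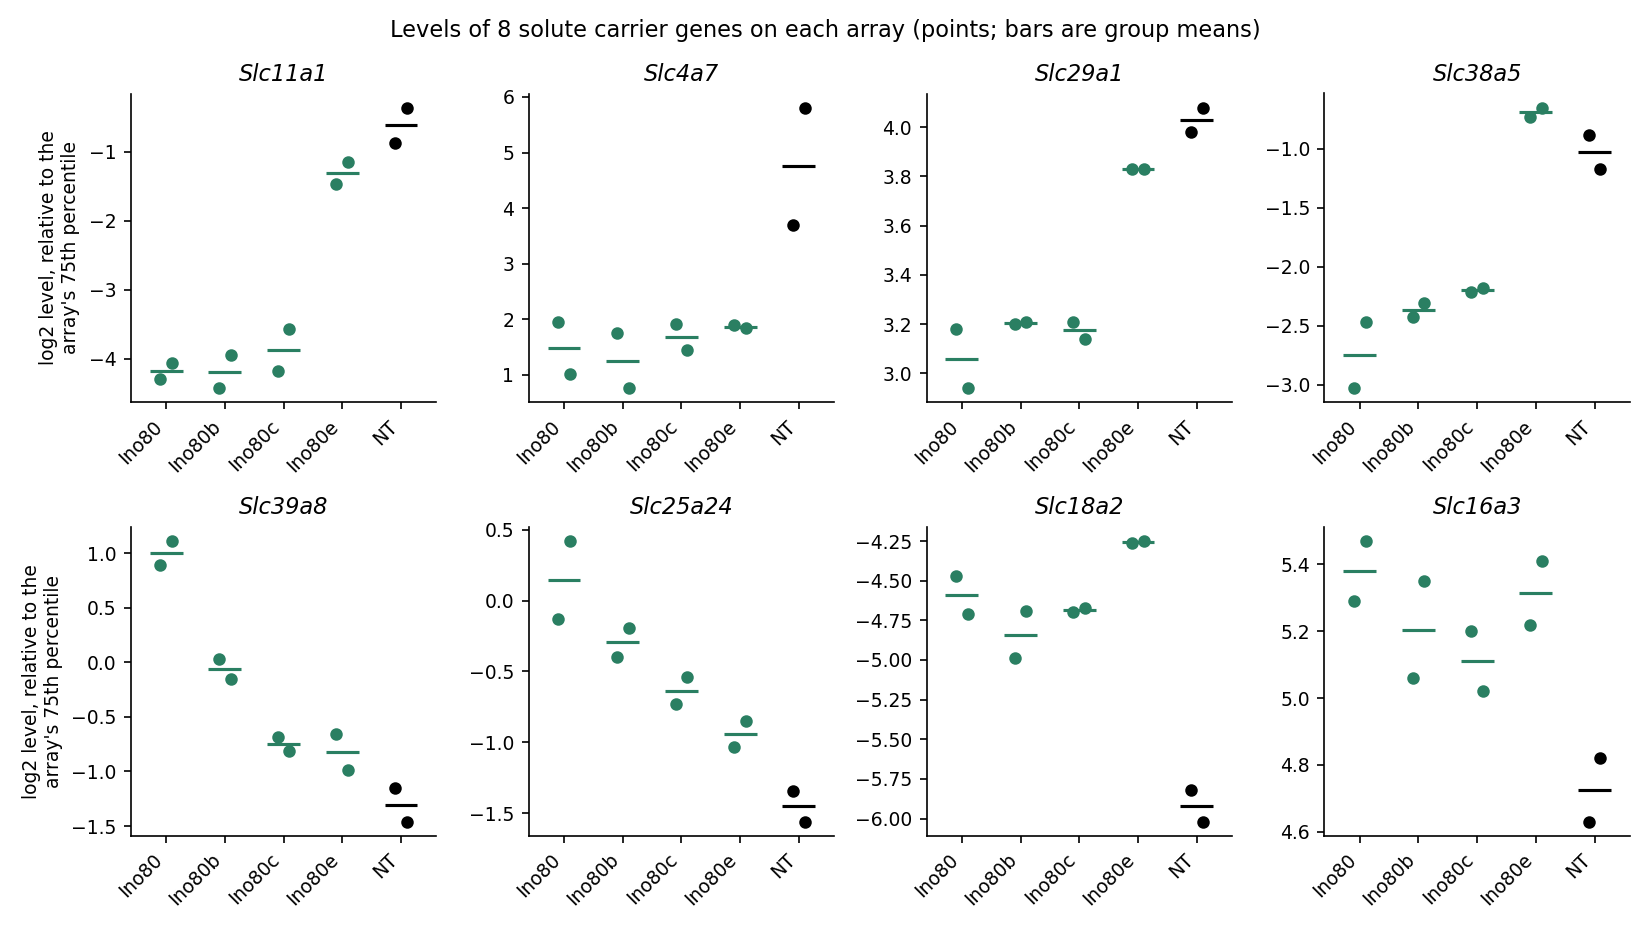
Log2 levels of 8 SLC genes on each of the 10 arrays, relative to the array's 75th percentile, with points for arrays and bars for group means; each panel has its own range. Slc11a1 and Slc38a5 were low in Ino80, Ino80b and Ino80c cells and near NT in Ino80e cells, Slc39a8 and Slc25a24 were highest in Ino80 cells, and the 2 NT arrays of Slc4a7 lay at 3.70 and 5.81.

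Among the 41 ion and pH transporters, 2 rose and 2 fell in Ino80, 2 rose and 1 fell in Ino80b, and 3 rose and 2 fell in Ino80c cells. Slc4a7 (NBCn1) carries sodium and bicarbonate into the cell and counters acid. It was at 1.96 and 1.01 in Ino80, 1.75 and 0.76 in Ino80b, 1.91 and 1.44 in Ino80c and 1.90 and 1.84 in Ino80e cells, against 3.70 and 5.81 in NT cells. Every knockdown array lay below both NT arrays, and the knockdowns overlapped each other except that both Ino80b arrays lay below both Ino80e arrays. The log2 fold changes were -3.27, -3.50 and -3.08 (SE 0.68, n = 2 each) in Ino80, Ino80b and Ino80c cells, with limma adjusted p of 0.0262, 0.035 and 0.0464, and -2.89 in Ino80e cells (limma adjusted p = 0.0844). The size depended on NT replicate 2, without which the value in Ino80 cells was -2.22 (limma adjusted p = 0.0724).

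Slc9a7, a sodium and potassium/proton exchanger of the Golgi, was at -3.59 and -3.35 in Ino80, -3.70 and -3.53 in Ino80b and -3.81 and -3.65 in Ino80c cells, against -4.42 and -5.11 in NT cells. It rose by 1.29, 1.15 and 1.04 in these knockdowns, with limma adjusted p of 0.0173, 0.0381 and 0.0477, and the authors' deposited values gave 0.49, 0.41 and 0.28. Slc26a4 (pendrin), a chloride, iodide and bicarbonate exchanger, rose by 0.56, 0.87 and 1.09 in Ino80, Ino80b and Ino80c cells. Slc4a2 (AE2), a chloride/bicarbonate exchanger, fell by 0.82 in Ino80c cells and Slc4a1 (band 3), its counterpart in red cells, rose by 0.96 there on a dim probe. The sodium-potassium-chloride cotransporter Slc12a2 (NKCC1) and the phosphate importer Slc20a1 were not called in any knockdown.

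The 37 transporters of neurotransmitters and organic ions had 3 genes higher and 4 lower in Ino80, 3 higher and 3 lower in Ino80b, and 5 higher and 1 lower in Ino80c cells. Slc18a2 (VMAT2) loads monoamines into vesicles, and the probe was among the dimmest members. It was at -4.47 and -4.71 in Ino80, -4.99 and -4.69 in Ino80b, -4.70 and -4.67 in Ino80c and -4.26 and -4.25 in Ino80e cells, against -5.82 and -6.02 in NT cells. The groups did not overlap with NT, and the values in Ino80e cells were the highest. Slc18a2 rose by 1.33 ± 0.16, 1.08 and 1.24 in Ino80, Ino80b and Ino80c cells, with limma adjusted p of 0.00504, 0.0199 and 0.0199, and was at 1.66 in Ino80e cells (limma adjusted p = 0.0648). On the authors' deposited values the same changes were 0.40, 0.30 and 0.30. Slc6a3, the dopamine transporter, rose by 1.32, 1.09 and 0.76 in the processed signal and was at 0.34, 0.28 and 0.14 on the deposited values.

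Of 14 neuron markers, 1 was higher (Nes, 1.24) and 2 were lower in Ino80 cells (Neurod1, -1.27, and Ddc, -0.71), and none was called in Ino80b or Ino80c cells by limma. All genes tested were called at 12.2%, 6.41% and 6.28% in Ino80, Ino80b and Ino80c cells. Slc17a7 (VGLUT1), which loads glutamate into vesicles, was at -6.01 and -6.28 in Ino80 and -5.77 and -6.85 in Ino80b cells, against -4.88 and -4.09 in NT cells. It fell by 1.66 and 1.82 (limma adjusted p = 0.0414 and 0.0466), with 1 of 2 arrays above background in each knockdown, and by 0.54 and 0.50 on the deposited values. In Ino80c cells it was well above background on neither array, at -5.89 and -6.18, and was not called (limma adjusted p = 0.0645). With levels under the detection limit raised to it, the estimate was 2.88-fold lower than in NT cells, without allowance for the spread. Slc22a16, a carnitine transporter, fell by 0.84 in Ino80 and 0.90 in Ino80b cells. Slc6a8, the creatine transporter, fell by 1.04 in Ino80 cells, at 2.26 and 2.34, against 3.66 and 3.03 in NT cells. Slc10a4, a protein of synaptic vesicles in the bile acid cotransporter family, rose by 0.74, 1.14 and 0.72 in Ino80, Ino80b and Ino80c cells. Slc18a1 (VMAT1) rose by 1.12 and Slc17a8 (VGLUT3) by 1.14 in Ino80c cells, and neither was called in the other knockdowns, where Slc18a1 was at -0.17 in Ino80, 0.59 in Ino80b and 0.13 in Ino80e cells. Slc17a8 was at 0.54 in Ino80, 0.56 in Ino80b and 1.21 in Ino80e cells (limma adjusted p = 0.0729 in Ino80e cells), so its value in Ino80e cells was as large as the called one.

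Among 31 amino acid transporters, 4 rose and 1 fell in Ino80, 4 rose and 1 fell in Ino80b, and 3 rose and 1 fell in Ino80c cells. The gene that fell was the same in each. Slc38a5 (SNAT5) carries glutamine, histidine and serine with sodium. It was at -3.03 and -2.47 in Ino80, -2.43 and -2.31 in Ino80b, -2.21 and -2.18 in Ino80c and -0.73 and -0.65 in Ino80e cells, against -0.88 and -1.17 in NT cells. The first 3 groups lay below NT with no overlap, and both Ino80e arrays lay above NT. Slc38a5 fell by 1.72 ± 0.20 in Ino80, 1.35 in Ino80b and 1.17 in Ino80c cells, with limma adjusted p of 0.00489, 0.0199 and 0.0277. In Ino80e cells the log2 fold change was 0.33 (limma adjusted p = 0.306).

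The amino acid carriers that rose in all 3 knockdowns were Slc1a6 (EAAT4), a glutamate transporter, by 0.80, 1.15 and 0.89, and Slc7a10 (Asc-1), which carries serine and glycine, by 1.19, 1.26 and 0.86. Slc7a10 was dim, at -4.68 and -4.58 in Ino80 cells, against -5.78 and -5.86 in NT cells, and on the deposited values it rose by 0.34 in Ino80 cells. Slc1a3 (EAAT1), another glutamate transporter, rose by 0.94 in Ino80 and 0.69 in Ino80c cells. Slc7a7 and Slc7a8, light subunits that pair with Slc3a2, rose by 0.81 and 1.39 in Ino80b cells. The carriers best known from growing cells were not called in any knockdown by limma. Slc3a2 (CD98 heavy chain) was at 5.04 and 4.96 in Ino80 cells, against 4.90 and 5.27 in NT cells. Slc7a5 (LAT1) was at 2.12 and 2.36 in Ino80 cells, against 2.11 and 2.32 in NT cells, and the 2 groups covered nearly the same range. Slc1a5 (ASCT2), Slc7a1 and Slc7a3 (cationic amino acid transporters) and Slc38a2 (SNAT2) had log2 fold changes between -0.45 and 0.54 over the 4 knockdowns.

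Sugar and monocarboxylate carriers changed in both directions. Of 21 in the sugar families, 2 rose and 2 fell in Ino80, 1 rose and 1 fell in Ino80b, and 2 rose and 1 fell in Ino80c cells. Slc37a1, which exchanges glucose 6-phosphate for phosphate in the endoplasmic reticulum, was at -0.24 and -0.60 in Ino80, 0.20 and -0.15 in Ino80b and 0.17 and -0.25 in Ino80c cells, against 1.00 and 0.98 in NT cells. It fell by 1.41, 0.96 and 1.03 (limma adjusted p = 0.0116, 0.0481 and 0.0423), with no overlap. Slc5a8, a sodium-coupled carrier of lactate, short fatty acids and iodide that sits in a sugar family by name, rose by 1.15, 1.44 and 1.49 on a dim probe, and by 0.39, 0.50 and 0.52 on the deposited values. Slc2a6 (GLUT6) rose by 1.45 in Ino80 cells, and Slc5a1 (SGLT1) fell by 1.00 there with 1 of 2 arrays above background. Slc5a10 (SGLT5) rose by 1.09 in Ino80c cells. The main glucose carriers of stem cells were not called. Slc2a1 (GLUT1) was at 5.82 and 6.49 in Ino80 cells, against 5.77 and 5.49 in NT cells. Every knockdown array of Slc2a1 lay above both NT arrays. Its log2 fold changes were 0.53, 0.43, 0.54 and 0.69 in Ino80, Ino80b, Ino80c and Ino80e cells. Slc2a3 (GLUT3) was at 5.05 and 5.77 in Ino80 cells, against 5.10 and 6.09 in NT cells.

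Of 14 monocarboxylate and fatty acid carriers, 4 rose and 1 fell in Ino80, 2 rose and 1 fell in Ino80b, and 3 rose in Ino80c cells. Slc16a3 (MCT4) exports lactate from glycolytic cells. It was at 5.29 and 5.47 in Ino80, 5.06 and 5.35 in Ino80b, 5.20 and 5.02 in Ino80c and 5.22 and 5.41 in Ino80e cells, against 4.63 and 4.82 in NT cells. All knockdown arrays lay above NT, but only the rise of 0.65 in Ino80 cells was called (limma adjusted p = 0.045), and it was called in 6 of 19 alternative settings. Slc16a1 (MCT1) had values of 0.42, 0.47, 0.34 and 0.31 and was not called. Slc16a6 (MCT7) rose by 0.87, 0.91 and 0.88 in Ino80, Ino80b and Ino80c cells, and Slc16a11 rose by 1.19 in Ino80 cells. Embigin (Emb), a chaperone of monocarboxylate transporters, was the 1 gene called among 9 tested partners of transporters and rose by 1.11, 0.79 and 0.82. Slc27a2, which activates and imports very long fatty acids, rose by 0.97 in Ino80b and 0.82 in Ino80c cells, at 3.47 and 3.55 and at 3.40 and 3.32, against 2.63 and 2.45 in NT cells. Slc27a5, a bile acid ligase of the liver, fell by 1.01 in Ino80b cells on a dim probe.

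Of 31 mitochondrial carriers, 5 rose and 2 fell in Ino80, 1 rose in Ino80b, and 1 rose and 1 fell in Ino80c cells. Slc25a24, which brings ATP-magnesium into mitochondria in exchange for phosphate, was at -0.13 and 0.42 in Ino80, -0.40 and -0.19 in Ino80b, -0.73 and -0.54 in Ino80c and -1.03 and -0.85 in Ino80e cells, against -1.34 and -1.56 in NT cells. It rose by 1.60 ± 0.21 in Ino80 and 1.15 in Ino80b cells (limma adjusted p = 0.00667 and 0.0305). A second, dimmer probe gave 0.45 in Ino80 and -0.39 in Ino80b cells, so the direction in Ino80b cells depended on the probe. Other calls in Ino80 cells, named after their values were seen, were rises of Slc25a37 (mitoferrin, 0.62), Slc25a27 (0.68), Slc25a31 (0.57) and Slc25a2 (0.87), and falls of the aspartate/glutamate carrier Slc25a12 (-0.76) and the pyrimidine nucleotide carrier Slc25a36 (-0.77). Carriers of energy metabolism, the phosphate carrier Slc25a3 and the ADP/ATP exchangers Slc25a4 and Slc25a5, had log2 fold changes from -0.10 to 0.43 and were not called in any knockdown.

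In the remaining classes, 1 of 5 nucleotide-sugar carriers rose and 1 of 17 carriers of vitamins, nucleosides and other solutes fell in each of Ino80, Ino80b and Ino80c cells. Slc29a1 (ENT1), which lets nucleosides pass both ways, was at 3.18 and 2.94 in Ino80, 3.20 and 3.21 in Ino80b, 3.21 and 3.14 in Ino80c and 3.83 and 3.83 in Ino80e cells, against 3.98 and 4.08 in NT cells. It fell by 0.97, 0.83 and 0.85 (SE 0.13, n = 2 each), with limma adjusted p of 0.0069, 0.0214 and 0.0251, and was at -0.20 in Ino80e cells. The Ino80e arrays lay between NT and the other knockdowns, with no overlap. Slc35a3, the carrier of UDP-N-acetylglucosamine into the Golgi, rose by 0.79, 0.78 and 0.70 on its brightest probe. Its other 2 probes gave 0.28 and -0.05 in Ino80 cells and were not called.

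Of the 72 member genes with more than 1 member probe, 12 were called in Ino80, 6 in Ino80b and 5 in Ino80c cells. In 2, 2 and 1 of these, another member probe of the gene had the opposite sign. These were Slc35a3 in each of the 3 knockdowns, Slc38a1 in Ino80 cells and Slc25a24 in Ino80b cells. Slc38a1 (SNAT1), a glutamine carrier with 6 member probes, rose by 0.62 in Ino80 cells on its brightest probe, while the other 5 lay between -0.21 and 0.16. For the 154 genes with a single member probe no such check within the members was possible, and these include Slc11a1, Slc4a7, Slc38a5, Slc18a2 and Slc16a3. Probes outside the members were not compared in this way, such as a further Slc10a4 probe that was above background on 1 NT array.

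**Figure D3:**
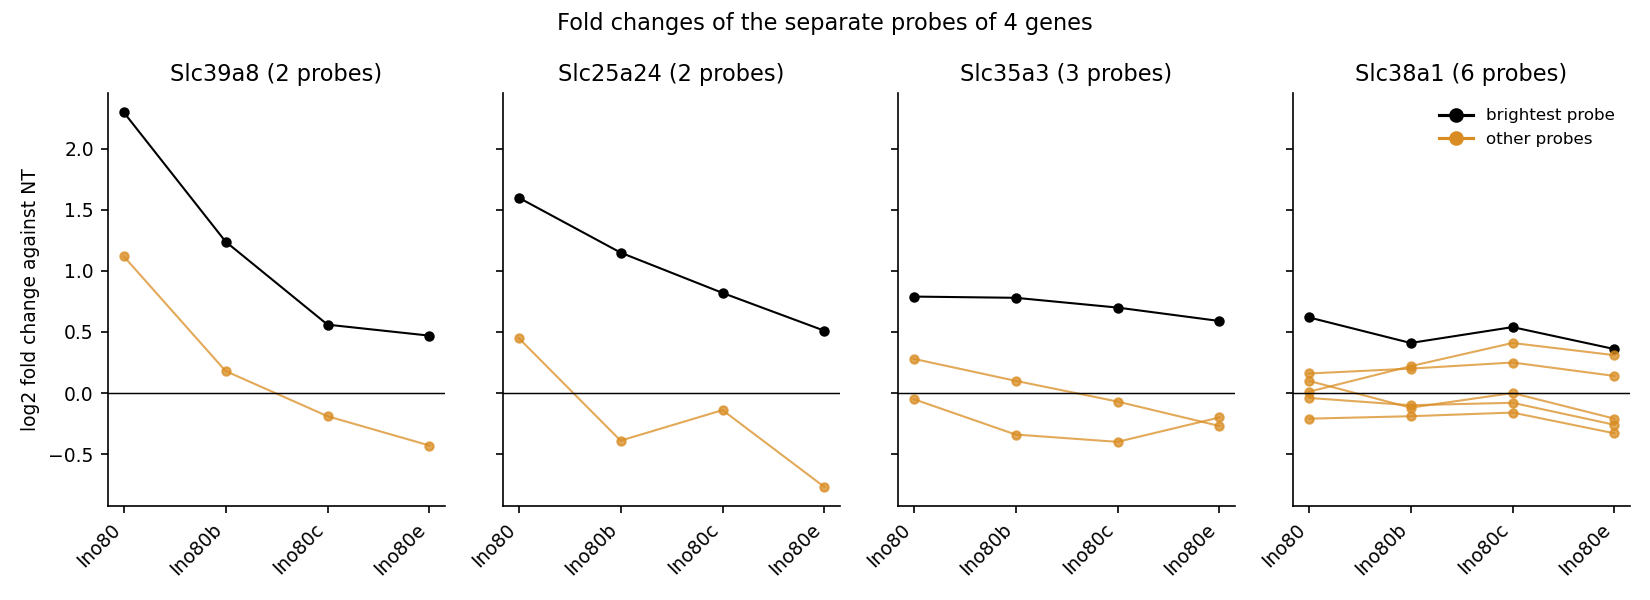
Log2 fold changes against NT of the separate probes of 4 SLC genes, with knockdowns along the horizontal axis and lines joining the points of 1 probe. The brightest probe (black) of Slc39a8 gave 2.30 and the other 1.12 in Ino80 cells, and the brightest of 6 Slc38a1 probes gave 0.62 where the other 5 lay between -0.21 and 0.16.

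Rises were found mainly on dim probes and falls mainly on brighter ones. The median NT level of the 226 genes was -1.34, with a lower quartile of -4.15. Genes called higher had a median NT level of -2.15 in Ino80, -4.16 in Ino80b and -4.06 in Ino80c cells. Genes called lower had -0.32, -0.83 and -0.38 in the same knockdowns. In Ino80c cells, 15 of 19 genes called higher and 0 of 9 called lower were under the median NT level. The NT level is part of the fold change, so this is a description. On the authors' deposited values, Slc10a4 was at 0.24, 0.46 and 0.18 and Slc26a4 at 0.24, 0.37 and 0.48 in Ino80, Ino80b and Ino80c cells. Slc2a6 was at 0.85 and Slc5a1 at -0.36 in Ino80 cells, Slc7a8 at 0.61 and Slc27a5 at -0.37 in Ino80b cells, and Slc17a8 at 0.35, Slc4a1 at 0.24 and Slc5a10 at 0.50 in Ino80c cells. All of these were smaller in size than in the processed signal.

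**Figure D4:**
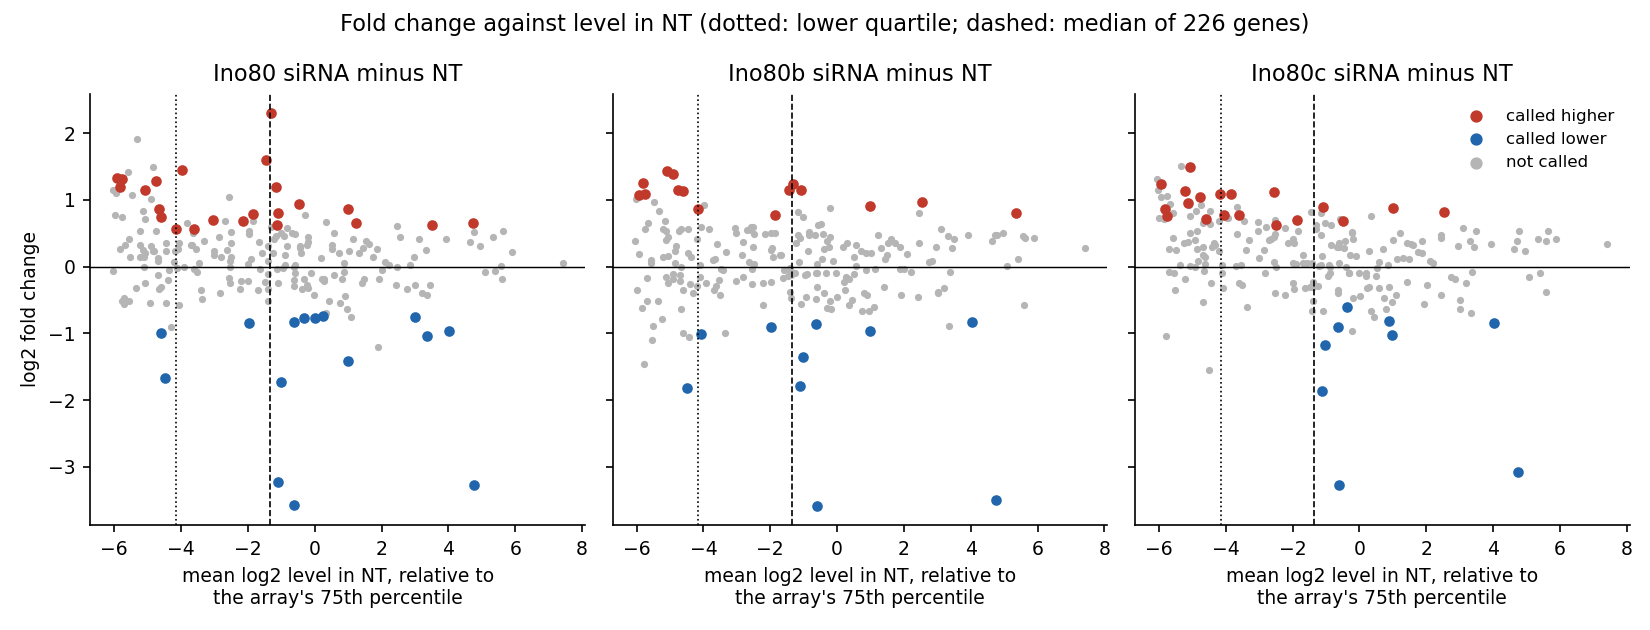
Log2 fold change (vertical) against the mean log2 level in NT (horizontal) for the 226 SLC genes in Ino80, Ino80b and Ino80c cells, with called genes in red (higher) and blue (lower). In Ino80b cells 8 of 15 genes called higher lie left of the dotted lower quartile at -4.15, against 1 of 10 called lower.

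The knockdowns were also compared with each other, in differences that do not use NT levels, although the NT arrays enter the pooled spread. Within slides, 0 members were called between Ino80 and Ino80b (0.0678% of all genes tested, 19 members at an unadjusted p under 0.05) and 0 between Ino80c and Ino80e (0.0339%, 29 members). Across slides, 10 members were called between Ino80 and Ino80e, 4 higher and 6 lower (3.08% of all genes, 1.13% higher and 1.96% lower), 5 between Ino80b and Ino80e, 3 higher and 2 lower (0.697%, 0.247% higher and 0.45% lower), 1 between Ino80 and Ino80c (1.04%) and 0 between Ino80b and Ino80c (0.029%, 30 members at an unadjusted p under 0.05). Slc11a1 was lower in Ino80 than in Ino80e cells (log2 difference -2.87, 95% interval -3.54 to -2.20, limma adjusted p = 0.0059) and lower in Ino80b than in Ino80e cells (-2.88, limma adjusted p = 0.0116). Within slide 3 it differed by -2.57 between Ino80c and Ino80e cells (interval -3.24 to -1.90), with a limma adjusted p of 0.0567. Slc38a5 differed from Ino80e cells by -2.06 in Ino80 and by -1.68 in Ino80b cells (limma adjusted p = 0.00583 and 0.0203). Within slide 3 it differed by -1.50 between Ino80c and Ino80e cells (interval -1.97 to -1.03), with a limma adjusted p of 0.0584.

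Slc39a8 was the 1 member that differed between Ino80 and Ino80c cells, by 1.75 (interval 1.32 to 2.17, limma adjusted p = 0.0132), and it was 1.83 higher in Ino80 than in Ino80e cells (limma adjusted p = 0.0059). Within slide 2 it was at 0.89 and 1.11 in Ino80 cells, against 0.03 and -0.15 in Ino80b cells, a difference of 1.06 (interval 0.64 to 1.48) with a limma adjusted p of 0.159. Slc4a7 did not pass between any pair of knockdowns, with differences between -0.62 and 0.23 and intervals about 1.6 wide on each side. Slc39a4 (ZIP4), the zinc importer of the gut, was called only here, at 2.78 and 3.08 in Ino80 cells, against 3.94 and 4.04 in Ino80e cells (log2 difference -1.06, limma adjusted p = 0.035), and its NT levels of 3.51 and 3.22 lay between.

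**Figure D5:**
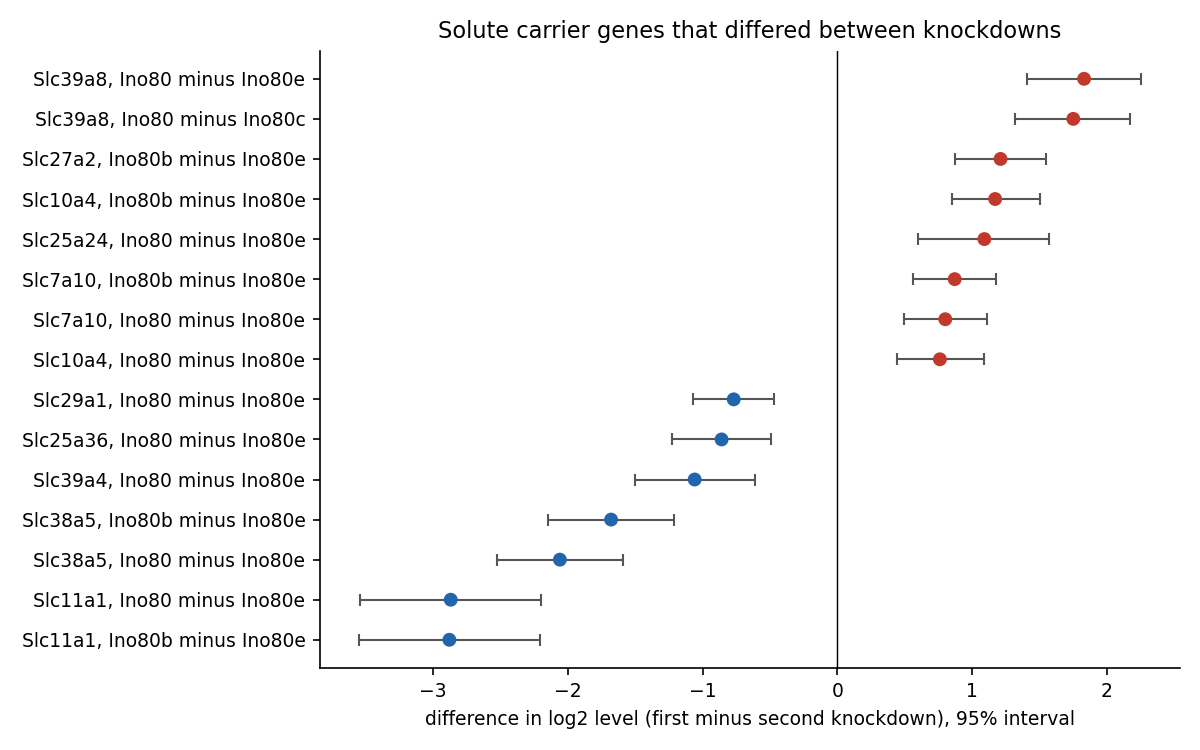
Differences in log2 level between 2 knockdowns (first minus second) for the SLC genes named in such a comparison, with 95% intervals of the fit. Slc11a1 and Slc38a5 lie furthest below 0 and Slc39a8 furthest above it, at 1.83 and 1.75.

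Transport genes outside the family were counted in the same fit. The counts stand beside 12.2%, 6.41% and 6.28% of all genes called in Ino80, Ino80b and Ino80c cells. Of 35 ATP-binding cassette genes tested, 1 rose and 4 fell in Ino80, 1 rose and 1 fell in Ino80b and 1 fell in Ino80c cells. They were led by Abcb1a, the drug efflux pump (-3.24 in Ino80 cells, with 1 of 2 arrays above background there), and Abcc8, the sulphonylurea receptor (2.10). Of 30 P-type ATPase genes, 2 rose and 3 fell in Ino80 and 1 rose in Ino80b cells, among them Atp8a2, a lipid flippase (1.46 in Ino80 cells). Of 7 aquaporins, 1 rose and 2 fell in Ino80 and 1 fell in Ino80b cells, where the water channel Aqp8 fell by 2.55 in Ino80 and 1.87 in Ino80b cells. Of 8 Slco genes, Slco3a1 rose by 1.09 in Ino80b and 0.98 in Ino80c cells. Of 18 regulators of transporter genes, the lysosomal regulators Tfeb and Tfe3 fell by 1.99 and 0.83 in Ino80 cells, and none was called in the other knockdowns by limma. Fibroblast feeder markers summed to 5.08 and 5.17 in Ino80, 4.71 and 4.77 in Ino80b and 4.87 and 5.14 in Ino80c cells, against 4.69 and 4.89 in NT cells. Of 12 tested, 5 were higher in Ino80, 2 in Ino80b and 3 in Ino80c cells, while Lum was not above background in any knockdown, Col6a1 in Ino80b, Ino80c and Ino80e, and Postn in Ino80b, Ino80e and NT cells. Of 11 stem cell markers, 4 were lower in Ino80, 3 in Ino80b and 2 in Ino80c cells, with Esrrb at -1.61, -1.49 and -1.35. None of these lists had a gene called in Ino80e cells by limma, where 0% of all genes tested were called, so none could.

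Promoters of the member genes were counted for short motifs, and those of Slc11a1, Slc38a5 and Slc39a8 were read singly. These are a selection, and the other SLC genes that differed between knockdowns were not read singly. The windows run from 250 bases before to 50 after the annotated start (RefSeq, GRCm38.p6), and 171 of the 226 member genes matched by symbol. The motifs were the E-box CACGTG, bound by MYC and related factors, the YY1 core CCATNTT and the ESRRB core AAGGTCA, each on both strands. Over all 32851 promoters, 7.15% held the E-box, 16.1% the YY1 core and 4.72% the ESRRB core. Over the 232 promoters of member genes these shares were 15.1%, 9.91% and 3.88%. Of the 13 promoters of the 6 matched genes that were lower in 3 knockdowns, 2 held the E-box, 1 the YY1 core and 1 the ESRRB core. Of the 9 promoters of genes higher in 3 knockdowns, 2 held the E-box and 0 the other motifs. Slc11a1 (chr1:74374953-74375252, plus strand) held the ESRRB core, Slc38a5 (chrX:8271131-8271430, plus strand) held the E-box, and the second of 2 starts of Slc39a8 (chr3:135825407-135825706, plus strand) held the E-box. The first Slc39a8 start held none of the 3. The matches are in capitals below and are descriptions of the letters, not sites.
Slc11a1 promoter: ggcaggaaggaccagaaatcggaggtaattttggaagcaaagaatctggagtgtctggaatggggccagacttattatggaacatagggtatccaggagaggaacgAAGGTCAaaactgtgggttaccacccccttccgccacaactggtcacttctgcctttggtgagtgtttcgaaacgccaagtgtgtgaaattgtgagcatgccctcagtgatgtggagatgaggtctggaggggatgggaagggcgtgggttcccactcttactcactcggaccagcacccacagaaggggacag
Slc39a8 promoter, second start: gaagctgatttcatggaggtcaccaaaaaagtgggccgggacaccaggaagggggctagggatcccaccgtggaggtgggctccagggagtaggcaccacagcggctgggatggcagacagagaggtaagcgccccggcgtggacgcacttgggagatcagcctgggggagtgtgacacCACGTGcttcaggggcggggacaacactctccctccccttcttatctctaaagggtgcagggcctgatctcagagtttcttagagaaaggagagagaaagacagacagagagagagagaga
Slc38a5 promoter: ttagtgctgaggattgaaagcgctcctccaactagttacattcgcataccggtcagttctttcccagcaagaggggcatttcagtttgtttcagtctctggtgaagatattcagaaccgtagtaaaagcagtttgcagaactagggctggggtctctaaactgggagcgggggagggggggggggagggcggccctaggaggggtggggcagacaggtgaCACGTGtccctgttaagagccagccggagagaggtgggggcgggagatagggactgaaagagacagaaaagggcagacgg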

How the data were processed

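RNA of 10 samples was hybridised to 1-colour Agilent arrays, and the deposited scanner files hold intensity values (processed signal, background subtracted) made with Feature Extraction 9.5.3.1, per the file headers. The authors also deposited a table of log2 values, which equals the log2 mean signal plus a constant for each array, without background subtraction, as set against the scanner values; no source used here gives how that constant was chosen. Each array's processed signal was taken as log2 minus its 75th percentile. Control and outlier spots were left out, as were probes not above background on both arrays of any group, spots of a probe were averaged, and the brightest kept probe stood for its gene. One linear model over the 5 groups was fitted with limma 3.58.1 (R 4.3.3), with 5 residual degrees of freedom and 2.23 prior ones, Benjamini-Hochberg adjustment over 20663 genes and a threshold of 0.05. Symbols came from the array's names, updated through RefSeq accessions. The number of arrays limits the precision.

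The members and the gene lists were chosen with earlier results of these data known. Named genes were 5 markers of the set, the 8 lowest and 8 highest called members in each comparison with NT, widely studied transporters whatever their values, the 4 largest called differences each way between knockdowns, genes with discordant probes, and the called genes of the other transport lists. A further part of the rule, for members called in all 4 knockdowns, named none. Slc1a3, Slc7a7, Slc25a2, Slc25a12, Slc25a27, Slc25a31, Slc25a37, Slc30a4, Slc39a6 and the marker genes were named after their values were seen. Alternatives were normexp background correction (offset 50), the deposited table, quantile normalization, no filter on dim probes, the compared arrays alone, the replicate number as a block, another prior, every probe, and each array left out. Some genes are counted in the totals and not reported here.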

Additional observations from a re-analysis of the deposited data

Results flagged for a closer look

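The following SLC genes had effects that differed between 2 knockdowns by a test of the difference itself (limma, adjusted over all genes), as log2 differences. Between Ino80 and Ino80e cells these were Slc11a1 (-2.87), Slc38a5 (-2.06), Slc39a4 (-1.06), Slc25a36 (-0.86), Slc29a1 (-0.77), Slc10a4 (0.76), Slc7a10 (0.80), Slc25a24 (1.09) and Slc39a8 (1.83). Between Ino80b and Ino80e cells they were Slc11a1 (-2.88), Slc38a5 (-1.68), Slc7a10 (0.87), Slc10a4 (1.17) and Slc27a2 (1.21). Between Ino80 and Ino80c cells it was Slc39a8 (1.75). All of these pairs lay on different slides, so slide and knockdown cannot be told apart in them. The Ino80e siRNA also lowered its own target by an amount that missed the threshold, and its part in these differences was not tested.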

How the results depend on the processing

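Counts of called members moved with the processing, while each member called against NT kept its sign in every alternative fit that held it. In several of these fits the log2 fold changes are those of the main fit, so a kept sign there carries no information. These are the fits without the dim filter, on the compared arrays alone, with the replicate block, with the other prior and on every probe. Leaving out an array of a group outside the comparison also leaves the fold change as it was. The fit on probes above background on all 10 arrays held 36 of 38 in Ino80 and 24 of 25 in Ino80b cells. The counts of 38, 25, 28 and 0 are in the order Ino80, Ino80b, Ino80c and Ino80e against NT, with shares of all genes called in brackets. They became 45, 45, 61 and 68 with normexp (18.6%, 15.9%, 20.6%, 26.2%) and 46, 36, 36 and 14 on the authors' deposited values (18.1%, 11.3%, 10.7%, 5.36%). They became 39, 26, 19 and 0 with quantile normalization (13.9%, 7.48%, 4.77%, 0%) and 20, 7, 3 and 0 without the filter on dim probes (4.47%, 0.876%, 0.494%, 0%). They became 46, 38, 38 and 20 with a trended, robust prior (17.9%, 13.7%, 12.2%, 8.23%), and 0 in each with only the 4 compared arrays (0% in each). With only probes above background on all 10 arrays, chosen after seeing the data, they were 45, 34, 39 and 9 (19.5%, 13.1%, 12.9%, 2.89%). With the replicate block they were 61, 57, 58 and 27 (23.7%, 17.4%, 18%, 9.55%). With that block the counts were 7 between Ino80c and Ino80e (1.47%) and 5 between Ino80 and Ino80c (3.49%). They were 25 between Ino80 and Ino80e (9.59%) and 16 between Ino80b and Ino80e cells (4.07%). The differences between replicates 1 and 2, taken within each group over all genes tested, correlated between groups at 0.004 to 0.321. The replicate numbers were not taken as pairs. Leaving out 1 array gave 13 to 36 in Ino80, 0 to 36 in Ino80b, 0 to 37 in Ino80c and 0 to 3 in Ino80e cells against NT, 0 to 1 between Ino80 and Ino80c, 0 to 10 between Ino80 and Ino80e and 0 to 4 between Ino80b and Ino80e cells. The lowest counts came without Ino80 replicate 2 (13), without either Ino80b array (0 in Ino80b cells) and without NT replicate 2 or either Ino80c array (0 in Ino80c cells). Between Ino80 and Ino80b the count of 0 became 1 with normexp (0.223%), 1 on the deposited values (0.116%) and 1 with the other prior (0.227%). Between Ino80c and Ino80e the count of 0 became 5 (0.765%), 5 (0.808%) and 5 (0.624%) in these. It became 1 with quantile normalization (0.126%) and 3 with probes above background on all arrays (0.465%). Between Ino80 and Ino80c the count of 1 became 7 with normexp (3.72%), 10 on the deposited values (4.12%) and 4 with the other prior (2.2%). It became 3 with those probes (2.01%) and 0 with 4 arrays (0%). Between Ino80 and Ino80e the count of 10 became 33 with normexp (14.7%) and 20 on the deposited values (8.2%). It became 3 without the filter (0.98%) and 0 with 4 arrays (0%). Between Ino80b and Ino80e the count of 5 became 10 (2.28%), 10 (2%), 1 (0.16%) and 0 (0%) in the same settings. Of 1669 values of named genes under alternatives, 1002 kept the call, 665 lost it and 2 reversed: between Ino80 and Ino80e cells, normexp gave -0.12 for Slc7a10 and -0.01 for Slc10a4. The cause was not tested. Slide as a random block was not run, because each slide holds whole groups. Signal close to background limits the precision of dim probes.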
